A study of Mus musculus with 6 samples.

Results

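Nnt and 8 other genes of mitochondrial NADPH supply and peroxide removal (Idh2, Me3, Glud1, Txn2, Prdx3, Prdx5, Sod2 and Glrx2) were followed in mouse ovaries with and without selenium-binding protein 1. Their probes were found by gene name in the array files, and together they are 9 of the 31693 names of genes and transcripts on the array. They have 14 probes of 39429, of which 12 passed the filter on background, as did 24415 probes in all. The set was chosen on values measured on these same arrays, above all the difference of Nnt between the genotypes. The differences are therefore described with their standard errors (SE) and without a test.

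Hydrogen peroxide formed in mitochondria is removed by peroxiredoxins and glutathione-dependent enzymes, and the electrons for this come from NADPH. Nicotinamide nucleotide transhydrogenase (Nnt) makes NADPH in the inner mitochondrial membrane with the energy of the proton gradient, while isocitrate dehydrogenase 2, malic enzyme 3 and glutamate dehydrogenase can make it in the matrix. In steroid-making ovarian cells the same NADPH also feeds the mitochondrial cytochrome that starts steroid synthesis. The C57BL/6J substrain is known to carry a deletion of several Nnt exons that related substrains such as C57BL/6N lack. The labels give C57BL/6J for both genotypes here, but the Nnt allele of the animals was not stated in the sources used here.

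RNA of whole ovaries from 3 SeBP1 KO females (SeBP1 is Selenbp1) and 3 wild-type females was labelled with Cy3 and hybridised to 1 array per sample. All mice were 20 weeks old, and the labels describe no treatment. They say neither which part of the gene was removed, nor in which cells, nor whether each array was a separate animal, so that every p-value measures the spread between these samples, which may be technical. All levels are log2 of the processed intensity over the array's 75th percentile, and differences are knockout minus wild type on that scale.

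Selenbp1 itself stood at -0.11, 0.025 and -0.37 in the 3 knockouts, against 2.68, 2.53 and 2.59 in the 3 wild types, and its difference was -2.75 (SE 0.13; limma, adjusted p = 0.0104). Whether its probe reads the deleted stretch is not known, so it checks the labels no further than that. It was the 1 probe of 24415 past the threshold of 0.05, and 964 probes (3.95%) had an unadjusted p under 0.05. Between 61.6% and 69.3% of spots were well above background, fewest in wild type 3. Wild types 1 and 2 shared a slide, and wild type 3 lay with the 3 knockouts on the other, so that a fit with slide as a block compares the knockouts with wild type 3. Ovarian marker lists were present, with all 10 granulosa, 10 corpus luteum and 12 oocyte markers passing the filter, and they differed between arrays of 1 genotype. The median corpus luteum marker stood 0.45, -1.20 and 0.12 from its mean over all arrays in the knockouts, against -0.13, -0.036 and 0.92 in the wild types. Oocyte markers were lower in the knockout mean for 12 of 12 genes, 0 of them past the threshold and 0 at an unadjusted p under 0.05 (limma), but with slide as a block 12 of 12 were higher, with medians of -0.24 and 0.28. Oviduct and ciliated markers were lower for 6 of 6 kept genes and 2 of 6 were higher with the slide block, and macrophage markers were higher for 7 of 8 in both fits. Adipocyte markers stood 2.36 above their mean in wild type 1, oviduct markers 1.12 in wild type 2, and red cell markers 1.53 in knockout 2. Adipoq, Cidec and Lep did not pass the filter. In whole ovaries, fewer cells of a type and less RNA per cell cannot be told apart.

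The files name 2 probes for Nnt and describe another as a transhydrogenase transcript, and the 3 behaved differently. The first 30 of the 60 bases of each are shown in lower case, since the reading of Nnt rests on which stretch of the gene a probe reads. All 3 lie on the minus strand (mm9).
First Nnt probe, chr13:120124335-120124394: gtattaagtgcgcttgaatggaatgcaacc
Second Nnt probe, chr13:120123318-120123377: gagacatttttgggtttcagaactggcaga
Probe described as Nnt, chr13:120142585-120142644: ggagggaccaacattgttctgatgtggagg
The first probe starts at base 4091 of its transcript and is listed for the coding NM_008710 and the non-coding NR_003544. The second starts at base 5102, lies 1017 bases away on the chromosome and is listed among RefSeq transcripts for NM_008710 alone. The third lies 18250 bases from the first, carries a transcript identifier (ENSMUST00000109204) in place of a gene name, and is not among the 14 probes. Whether any of the 3 lies inside or outside the exons missing in C57BL/6J was not worked out here.

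The first Nnt probe was well above background on all 6 arrays and was brighter in every knockout ovary than in every wild-type ovary. Its intensity was 9825, 8164 and 8064 units in the knockouts and 4080, 3505 and 2598 units in the wild types. On the log2 scale this was 2.58, 2.45 and 2.28 in the knockouts, against 1.21, 1.15 and 0.99 in the wild types, so that the lowest knockout lay above the highest wild type. Nnt averaged 2.44 ± 0.15 in the knockouts and 1.12 ± 0.12 in the wild types (SD, n = 3 each), a difference of 1.32 (SE 0.13; 95% interval 1.02 to 1.62), or 2.50-fold. Among the 12 member probes it was the 1 whose groups did not overlap upwards, as happened in 3.94% of all probes tested. A log2 difference of at least 1 upwards was seen in 0.516% of them, and Nnt ranked 50 by size among the probes that were higher. Since the gene was chosen for this difference, nothing is read from those shares. The interval takes no account of that choice either and is not a test.

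With slide as a block the Nnt difference was 1.45 (SE 0.17), and without wild type 3 it was 1.26. Leaving out each array in turn gave 1.25 to 1.40. All 18 other settings gave 1.24 to 1.45, though changes of filter and the replicate block could not move the difference. Keeping outlier-marked spots also left it unchanged. Set against the median of the other 11 member probes on the same array, Nnt stood at -0.14, -0.29 and -0.70 in the knockouts and at -1.69, -1.77 and -1.86 in the wild types. This difference, 1.39, was close to that against the 75th percentile, and the median of the other members itself averaged 2.82 ± 0.15 in the knockouts and 2.89 ± 0.04 in the wild types (SD, n = 3 each).

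The second Nnt probe was well above background on 0 of 6 arrays. Its intensity was 5.42, 6.14 and 6.61 units in the knockouts and 7.02, 5.16 and 6.94 units in the wild types, below the 17.6 to 29.0 units of the dimmest spots well above background on each array. It gave no measure of the difference. The probe described as Nnt was dim, at 203, 54.9 and 40.9 units in the knockouts and 26.4, 14.2 and 41.8 units in the wild types, and was well above background on 3 knockout and 2 wild-type arrays, so that it passed the filter through the knockouts alone. On the log2 scale it stood at -3.01, -4.77 and -5.34 in the knockouts and at -6.06, -6.80 and -4.97 in the wild types. Its groups overlapped, since wild type 3 lay above knockout 3. The difference was 1.57 (SE 0.70) and depended on single arrays: it was 0.89 without knockout 1, 2.06 without wild type 3 and 0.60 with slide as a block. The size of the Nnt difference therefore rests on 1 probe.

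**Figure D1:**
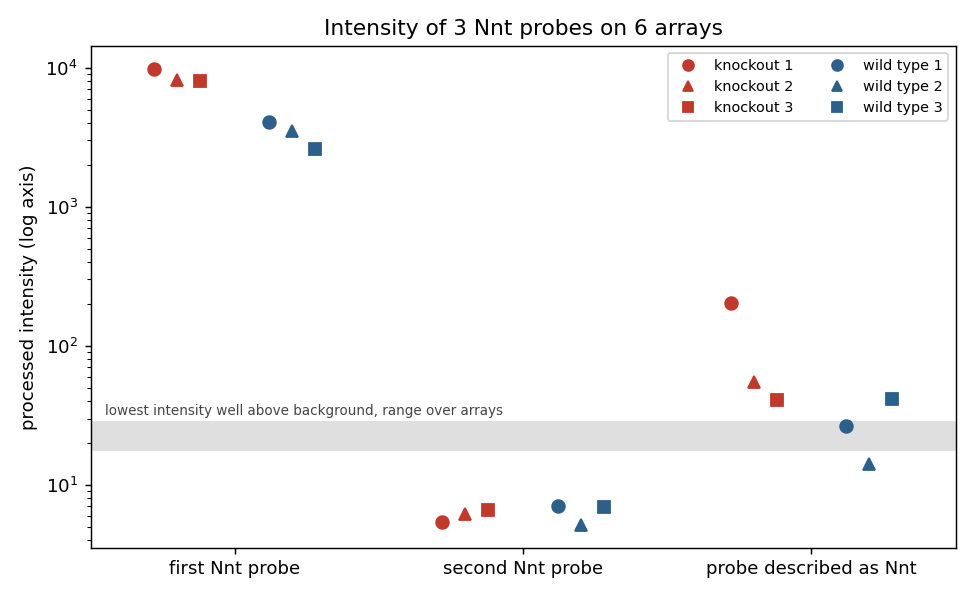
Processed intensity (log axis) of the 3 Nnt probes on each array, knockouts in red left of wild types in blue, with symbols for replicates 1 to 3. The grey band is the range over arrays of the lowest intensity well above background; the first probe separates the genotypes, the second lies below the band on all 6 arrays and the third overlaps.

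Of the other 8 genes, all 11 kept probes had overlapping groups, where 8.58% of all probes tested did not overlap. In the knockout mean 5 of these probes were higher and 6 lower, and 7 lay within 1 standard error of 0 and all 11 within 2. Their median difference was -0.0018, beside -0.017 over all 24415 probes, of which 45.7% were higher. The differences ran from -0.24 to 0.40, with standard errors of 0.11 to 0.26. The 95% intervals reached down to -0.74 at the lowest (Sod2) and up to 0.92 at the highest (the dim Glrx2 probe). Others were narrower, such as -0.26 to 0.26 for the dimmer Glud1 probe. Changes within a probe's own interval could not be resolved with 6 arrays.

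**Figure D2:**
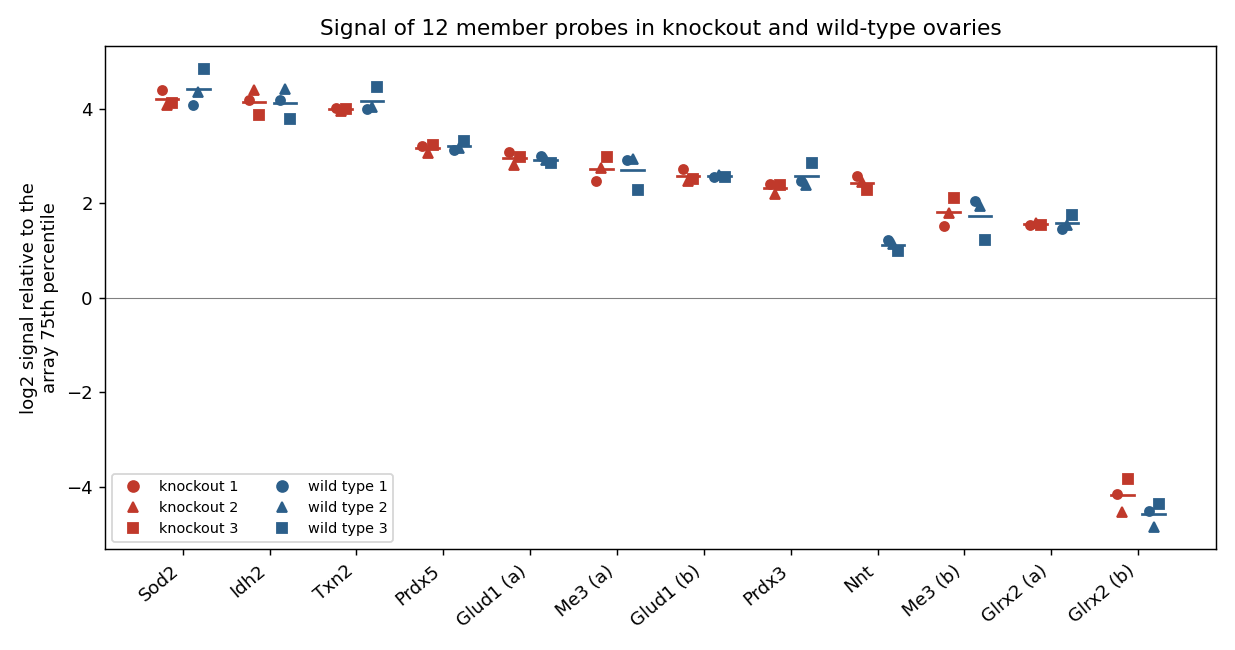
Log2 level of the 12 kept probes (intensity over the array's 75th percentile), ordered by mean level, with knockouts in red left of wild types in blue, symbols for replicates 1 to 3 and lines for group means. (a) and (b) mark the brighter and dimmer probe of a gene; the Nnt groups are apart, and the groups of the other 11 probes overlap.

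Isocitrate dehydrogenase 2 (Idh2), which makes NADPH from isocitrate in the matrix, had nearly the same mean in both genotypes. It stood at 4.17, 4.40 and 3.87 in the knockouts and at 4.19, 4.42 and 3.78 in the wild types. The difference was 0.017 (SE 0.21; 95% interval -0.49 to 0.52). Its position depended on wild type 3, the lowest of the 6, with 0.36 under the slide block and -0.16 without that array.

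Malic enzyme 3 (Me3), which makes NADPH from malate in mitochondria, has 3 probes on the plus strand of chromosome 7, shown by their first 30 bases because they differed widely in signal.
Brighter Me3 probe, chr7:97000413-97000472: tctccagagatggtttgggctggatgaaga
Dimmer Me3 probe, chr7:97000311-97000370: ttttgtaaaatctctgatctacactccaga
Background-level Me3 probe, chr7:97001889-97001948: acccagcttaatcctttttattccaactcc
The brighter probe stood at 2.47, 2.75 and 2.98 in the knockouts and at 2.91, 2.93 and 2.28 in the wild types, and the dimmer at 1.53, 1.79 and 2.11 in the knockouts and at 2.04, 1.94 and 1.22 in the wild types. Both placed knockout 3 highest and wild type 3 lowest, and the gap between them was 0.87 to 1.07 on every array. Their differences were 0.023 (SE 0.22) and 0.075 (SE 0.26). The sign turned without wild type 3, to -0.19 and -0.18, and the slide block gave 0.45 and 0.59. The last Me3 probe was well above background on 1 array, knockout 3, and did not pass the filter.

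Glutamate dehydrogenase 1 (Glud1), which releases ammonia from glutamate in the matrix with either NAD or NADP, varied least among the arrays of the NADPH sources. Its brighter probe stood at 3.09, 2.82 and 2.99 in the knockouts and at 2.99, 2.92 and 2.84 in the wild types. Its other probe stood at 2.72, 2.48 and 2.52 in the knockouts and at 2.56, 2.60 and 2.57 in the wild types. The differences were 0.050 (SE 0.12) and -0.0018 (SE 0.11), with 95% intervals of -0.23 to 0.33 and -0.26 to 0.26.

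Thioredoxin 2 (Txn2), the mitochondrial thioredoxin that passes electrons to peroxiredoxins, stood at 4.02, 3.94 and 4.00 in the knockouts and at 4.00, 4.03 and 4.47 in the wild types. Only wild type 3 lay apart, and the other 5 arrays fell within the narrow span of 3.94 to 4.03. The difference was -0.18 (SE 0.15). It was -0.024 without wild type 3 and -0.48 with the slide block. A dimmer probe that the files only describe as Txn2 differed by -0.16. Another such probe was well above background on 1 knockout and 1 wild-type array and did not pass the filter.

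Peroxiredoxin 3 (Prdx3), the thioredoxin-dependent peroxidase of the matrix, was read by 10 spots per array, 8 to 10 of them used. These spots varied by 1.31% to 3.65% within an array (coefficient of variation), most in wild type 3. Prdx3 stood at 2.42, 2.19 and 2.39 in the knockouts and at 2.47, 2.39 and 2.85 in the wild types, so that knockout 2 was lowest and wild type 3 highest. Its difference was -0.24 (SE 0.15), against -0.096 once wild type 3 was left out and -0.52 with the slide block.

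Peroxiredoxin 5 (Prdx5), a peroxidase found in mitochondria and elsewhere in the cell, stood at 3.21, 3.07 and 3.24 in the knockouts and at 3.13, 3.17 and 3.31 in the wild types. The difference was -0.032 (SE 0.11; 95% interval -0.29 to 0.23). A second, brighter Prdx5 probe, known only from its description in the files, differed by -0.068 (SE 0.12).

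Manganese superoxide dismutase (Sod2), which turns superoxide in the matrix into hydrogen peroxide, stood at 4.39, 4.08 and 4.12 in the knockouts and at 4.09, 4.35 and 4.84 in the wild types. Knockout 1 lay above 2 of the wild types, and wild type 3 was the highest of all. The difference was -0.23 (SE 0.21); leaving out wild type 3 gave -0.020, and the slide block -0.65.

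Glutaredoxin 2 (Glrx2), which uses glutathione to reduce protein disulfides in mitochondria and has other isoforms too, was read by 2 probes 5.36 to 6.37 log2 units apart. The brighter probe stood at 1.55, 1.58 and 1.54 in the knockouts and at 1.45, 1.54 and 1.76 in the wild types, a difference of -0.025 (SE 0.12). The dimmer stood at -4.14, -4.53 and -3.82 in the knockouts and at -4.51, -4.84 and -4.35 in the wild types, a difference of 0.40 (SE 0.22). Both probes are listed for the same 4 RefSeq transcripts, and they gave opposite signs with groups that overlapped.

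Wild type 3 lay at an end of the 6 arrays for 8 of the 11 probes. It was highest for Txn2, Prdx3, Prdx5, Sod2 and the brighter Glrx2 probe, and lowest for Idh2 and both Me3 probes. On that array the corpus luteum markers also stood highest (0.92 above their mean), the granulosa markers lowest (-0.54) and the share of spots well above background lowest (61.6%). The 9 corpus luteum markers with a value on every array summed to a log2 level of 5.06 to 7.05 in the knockouts and 6.58 to 7.38 in the wild types. Hsd3b1, the other marker, was marked as an outlier on wild types 1 and 2 and is left out of the sum. With it, compared with wild type 3 alone, 8 of 10 were lower in the knockout mean. The 10 granulosa markers summed to 7.61 to 8.33 in the knockouts and 7.39 to 8.14 in the wild types. The part of these lists in the member values was not tested.

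**Figure D3:**
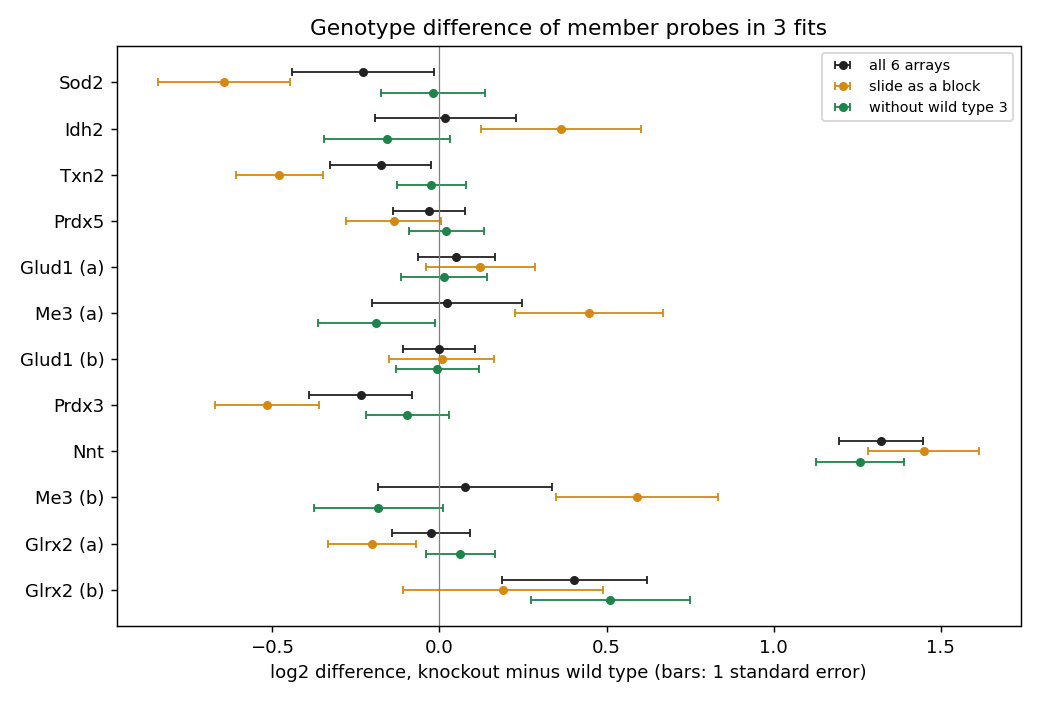
Log2 difference, knockout minus wild type, for the 12 kept probes in 3 fits: all 6 arrays, slide as a block, and without wild type 3; bars are 1 standard error and probes run down by mean level. Nnt lies between 1.26 and 1.45 in all 3, while the slide block takes Sod2, Txn2 and Prdx3 farther below 0, and Idh2 and both Me3 probes farther above 0.

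Ranked by probe signal over all 6 arrays, the order was Sod2 (4.31), Idh2 (4.14), Txn2 (4.08), Prdx5 (3.19), the brighter Glud1 probe (2.94), the brighter Me3 probe (2.72), the other Glud1 probe (2.57), Prdx3 (2.45), Nnt (1.78), the dimmer Me3 probe (1.77) and the Glrx2 probes (1.57 and -4.37). This is an order of probe signal, which depends on the probe as well as on the transcript, as the probe pairs of Me3 and Glrx2 show. The brighter Prdx5 probe, known only from its description, was not ranked. Its mean lay above that of every ranked probe in both genotypes, so the place of Prdx5 depends on the probe. Sod2, Idh2 and Txn2 were not separated, with Sod2 above Idh2 on 3 of 6 arrays and Idh2 above Txn2 on 4 of 6. Txn2 lay above the ranked Prdx5 probe, and that probe above the brighter Glud1 probe, on 6 of 6 arrays. The following neighbours, down to Prdx3, changed places on at least 1 array. Nnt ranked 8 among the 12 probes in the knockout mean and 11 in the wild-type mean. Prdx3, the dimmer Me3 probe and the brighter Glrx2 probe lay above it in the wild-type mean alone.

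Related genes were read from 6 lists of the same pathways and compartments, 1 probe per gene, and 0 of their members passed the threshold in either direction (limma, smallest adjusted p = 1.00 in each list), where 0.0041% of all probes did. The 16 other mitochondrial NAD(P)H enzymes, one-carbon enzymes and carriers had 15 kept members, 2 with a higher and 13 with a lower knockout mean and a median difference of -0.067 (-0.10 with the slide block), and 0 had an unadjusted p under 0.05. Slc25a11, the oxoglutarate carrier, stood at 3.43, 3.41 and 3.21 in the knockouts and at 3.51, 3.52 and 3.60 in the wild types, a difference of -0.19 (SE 0.11). Mthfd2, a mitochondrial folate enzyme, differed by -0.25 (SE 0.19), by -0.073 without wild type 3 and by -0.60 with the slide block.

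The 16 other mitochondrial peroxide and glutathione enzymes had 4 members with a higher and 12 with a lower knockout mean, a median of -0.11 (-0.043 without wild type 3) and 0 at an unadjusted p under 0.05. Glutathione reductase (Gsr), which spends NADPH to renew glutathione, stood at 1.80, 1.79 and 1.83 in the knockouts and at 1.90, 1.96 and 2.08 in the wild types, a difference of -0.17 (SE 0.10). Thioredoxin reductase 2 (Txnrd2), which passes electrons of NADPH to Txn2, stood at 2.31, 2.29 and 2.03 in the knockouts and at 2.31, 2.39 and 2.58 in the wild types, a difference of -0.22 (SE 0.13). Neither passed the test, and without wild type 3 the Txnrd2 difference was -0.14. The slide block gave -0.28 for Gsr and -0.37 for Txnrd2.

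Of the 12 genes listed for mitochondrial use of NADPH, not each a user itself, 1 had a higher and 11 had a lower knockout mean. The median was -0.10 (-0.055 without wild type 3, -0.24 with the slide block), and 0 had an unadjusted p under 0.05 (limma). The higher one, Aldh18a1, which starts proline synthesis from glutamate, differed by 0.14 (SE 0.10). The list also holds the steroid chain of the corpus luteum. Its first enzyme, Cyp11a1, stood at 6.23, 3.93 and 5.98 in the knockouts and at 5.89, 5.92 and 6.62 in the wild types, so that knockout 2 alone lay far below the rest. The median corpus luteum marker, of a list that itself holds Cyp11a1, was also lowest in knockout 2. Akr1c18, Parm1 and Hsd3b1 of that list were not lowest there.

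The 22 genes of mitochondrial content (respiratory chain, import, chaperones and regulators) had 5 members with a higher and 17 with a lower knockout mean and a median of -0.093 (-0.032 without wild type 3, -0.15 with the slide block). The 2 with an unadjusted p under 0.05, both lower, where 1.74% of all probes were lower at that level, were the chaperonin pair that folds proteins in the matrix. Hspe1 stood at 4.47, 4.65 and 4.59 in the knockouts and at 4.82, 4.81 and 5.16 in the wild types, a difference of -0.36 (SE 0.13; limma, adjusted p = 1.00). Hspd1 stood at 4.74, 4.61 and 4.49 in the knockouts and at 4.80, 4.92 and 5.31 in the wild types, a difference of -0.39 (SE 0.16; limma, adjusted p = 1.00). The groups did not overlap for either gene, as for 4.64% of all probes in that direction, and both differences were -0.25 without wild type 3. With the slide block they were -0.59 for Hspe1 and -0.69 for Hspd1.

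Outside mitochondria, the 11 genes listed for NADPH supply, not each of which makes NADPH itself, had 1 member with a higher and 10 with a lower knockout mean. They had a median of -0.16. That median was -0.038 without wild type 3 and -0.48 with the slide block. Transaldolase (Taldo1), of the pentose phosphate pathway, differed by -0.31 (SE 0.19), by -0.13 without wild type 3 and by -0.66 with the slide block, and glucose-6-phosphate dehydrogenase (G6pdx), its entry enzyme, by -0.15 (SE 0.10). The 16 cytosolic and secreted peroxide enzymes had 5 higher and 11 lower, a median of -0.038, and a median of 0.011 without wild type 3. In both lists 0 members had an unadjusted p under 0.05. Txnl1, a thioredoxin-like protein, differed by 0.25 (SE 0.14), by 0.13 without wild type 3 and by 0.48 with the slide block. Cytosolic thioredoxin (Txn1) differed by -0.23 (SE 0.17), a value that rests on wild type 3 alone, since its spots on the other 2 wild-type arrays were marked as outliers and left out.

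**Figure D4:**
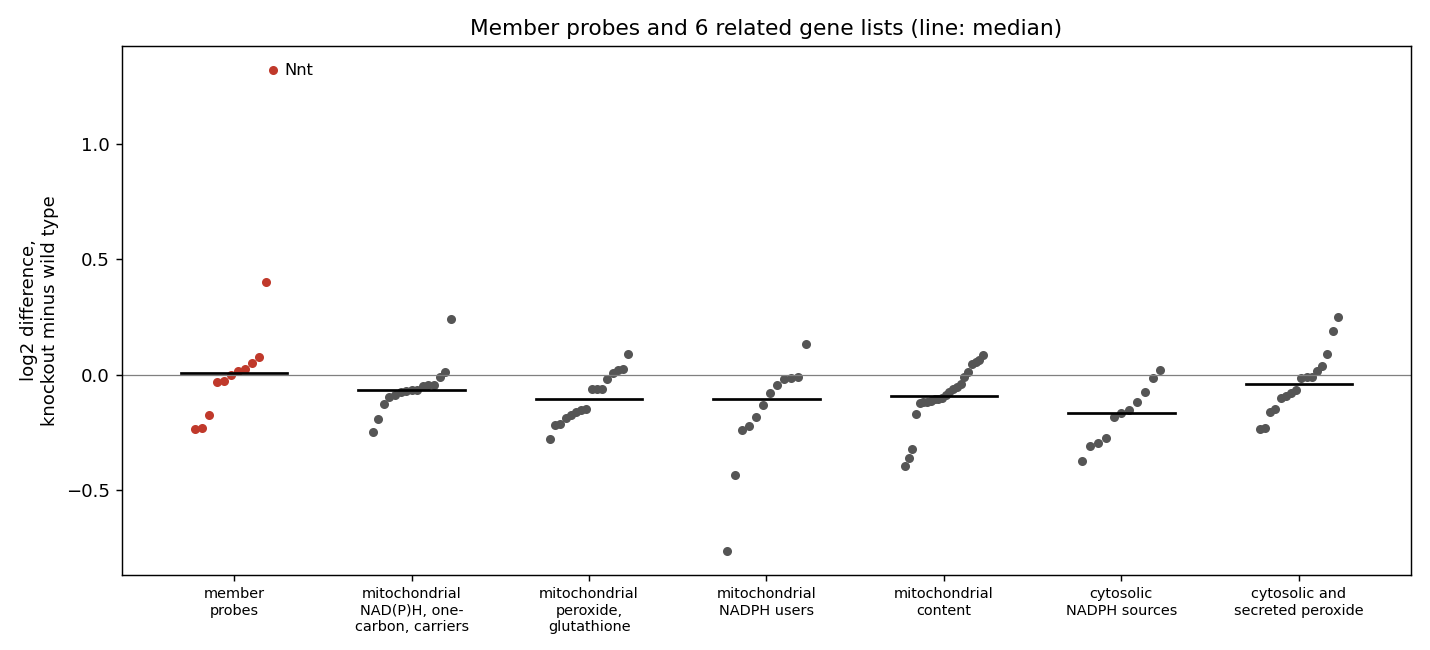
Log2 difference, knockout minus wild type, of the 12 kept member probes (red) and of the genes of 6 related lists (grey, 1 probe each), with a line at each median. Nnt, at 1.32, lies above every other point shown, and the list medians lie between -0.16 and -0.038.

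Nnt lies on chromosome 13 and Selenbp1 on chromosome 3. Within 2 Mb of the first Nnt probe, 23 other probes were named for neighbouring genes or transcripts (the probe described as Nnt is left out), and 13 of them, for 9 genes, passed the filter. All 13 were higher in the knockout mean, where 45.7% of all probes tested were, but several share a gene and are not independent. Their median difference was 0.25, with a range of 0.0019 to 1.00, and 0 passed the threshold (limma, 1 at an unadjusted p under 0.05). The groups did not overlap upwards for 1 of the 13, against 3.94% of all probes. Without the filter 16 of the 23 were higher and 7 lower, and 9 of the 23 were well above background on 0 arrays. Of the 13, 12 had passed the filter in both genotypes and 1 in the knockouts alone. Again 12 were higher and 1 lower without wild type 3, and 10 were higher and 3 lower with the slide block.

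The nearest kept neighbour towards lower coordinates was Mrps30, a mitochondrial ribosomal protein 955 kb away, which stood at 2.20, 2.33 and 2.16 in the knockouts and at 2.15, 2.28 and 2.25 in the wild types. Its difference was 0.0040 (SE 0.10; limma, adjusted p = 1.00). Farther out, 6330563C09Rik stood at -4.75, -2.56 and -2.84 in the knockouts and at -3.08, -5.02 and -5.06 in the wild types, so that its groups overlapped, and differed by 1.00 (SE 0.76), by 0.67 without wild type 3 and by 1.68 with the slide block.

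Towards higher coordinates the nearest gene was Paip1, a partner of the poly(A)-binding protein, 115 kb away. Its brighter probe stood at -0.59, -0.65 and -0.51 in the knockouts and at -0.61, -0.68 and -0.47 in the wild types, a difference of 0.0019 (SE 0.11), and its other probe differed by 0.25 (SE 0.18). LOC100045679 differed by 0.24 (SE 0.14), the probes of 4833420G17Rik by 0.12 and 0.14 (SE 0.14 and 0.16), and 3110070M22Rik by 0.017 (SE 0.19). Tmem267, 153 kb away, and LOC100044171, 161 kb away, are named here after their values were seen. LOC100044171 differed by 0.70 (SE 0.34), and further Tmem267 probes by 0.59 and 0.54 (SE 0.26 and 0.25), all with groups that overlapped. The remaining Tmem267 probe was the 1 without overlap. These probes lie close together, and knockout 2 was highest on each of them, the remaining probe included. The probe without overlap stood at -3.31, -2.73 and -3.92 in the knockouts and at -4.36, -4.16 and -4.01 in the wild types, a difference of 0.85 (SE 0.30; limma, adjusted p = 1.00).

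**Figure D5:**
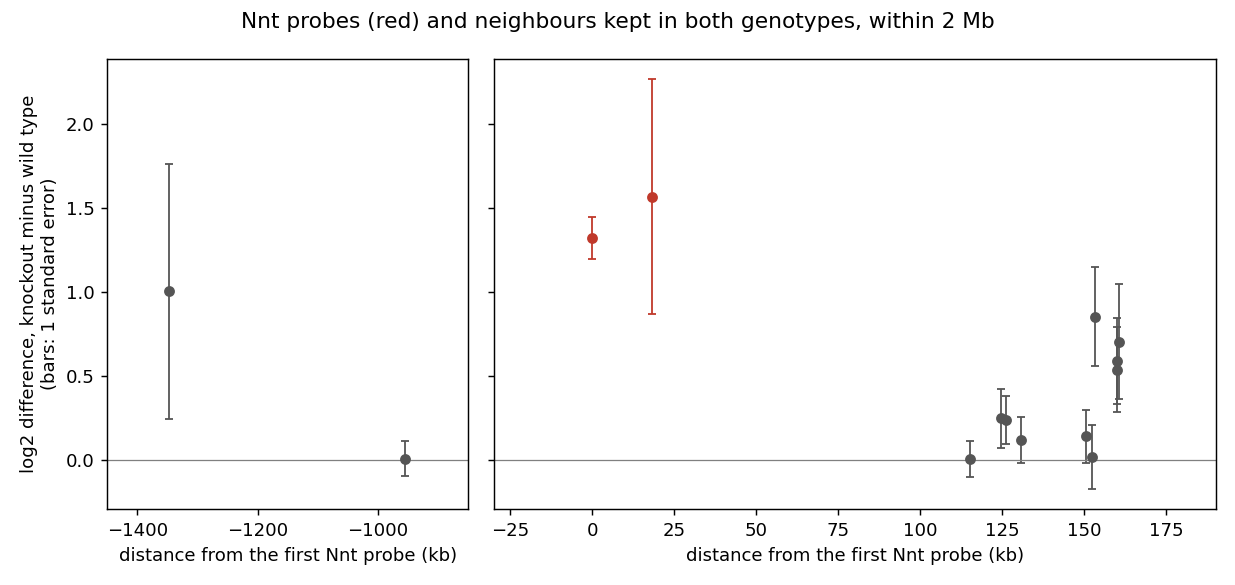
Log2 difference, knockout minus wild type, of the first and described Nnt probes and of 12 of the 13 kept neighbouring probes within 2 Mb, those kept in both genotypes, against their distance from the first in kb (the axis is broken between the panels); bars are 1 standard error and red marks the 2 Nnt probes. Mrps30 at -955 kb and the brighter Paip1 probe at 115 kb lie at 0.0040 and 0.0019.

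The 5 named genes whose profile over the 6 arrays was nearest to that of Nnt were found by the root mean square difference of log2 values after each probe was centred on its own mean. They were Sik1, a salt-inducible kinase (0.189), Nos1ap, an adaptor of nitric oxide synthase (0.287), Rasgef1b, an exchange factor for small GTPases (0.288), Notch1, a cell surface receptor (0.306), and Rasl10a, a Ras-like protein (0.306). Nos1ap and Notch1 were well above background on 3 knockout and 2 wild-type arrays and so passed the filter through the knockouts alone. Sik1 stood at -1.21, -1.65 and -1.25 in the knockouts and at -2.74, -2.81 and -2.70 in the wild types, groups that lie apart as those of Nnt do, which its choice as the nearest profile fixes. The median over 24180 probes with a value on every array was 0.702. The other members lay at 0.558 (the dim Glrx2 probe) to 0.829 (Sod2), so none of them was among the nearest profiles.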

How the data were processed

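The authors deposited Agilent Feature Extraction 10.7.1.1 scanner files of 6 one-colour arrays with background-subtracted spot intensity on a linear scale and mm9 probe coordinates, per the file headers. A deposited series table of intensity, with equal array medians (119.8) and no stated method in the sources used here, served as an alternative. Control spots and outlier-marked spots (192 to 459 per array) were left out, and spots of a probe averaged. No spot was saturated. Kept probes were well above background on all arrays of a genotype or of both. Names came from RefSeq accessions through a GRCm38 gene table, and 8428 probes kept the name in the file. Genotypes were compared with lmFit and eBayes (limma 3.58.1, R 4.3.3), two-sided, Benjamini-Hochberg adjusted over 24415 probes, after a test on simulated data.

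The members and lists were chosen with earlier results of these data known. Named were all member probes, up to 4 genes past the threshold or else the 2 with the smallest p per list, the 4 nearest kept genes on each side of Nnt, and the 5 most similar profiles (accession, clone and numbered database names left out). In lists the brightest probe stood for a gene. Cyp11a1, Tmem267 and LOC100044171 were added after their values were seen. The values of 2 genes that the rule named are not reported here. Alternatives were normexp (offset 50), quantile and median scaling, filters, outlier spots, slide and replicate blocks, array weights and each array left out.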

Additional observations from a re-analysis of the deposited data

How the results depend on the processing

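The Nnt difference of 1.32 lay between 1.24 and 1.45 under all 18 alternatives, and between 1.25 and 1.40 when arrays were left out in turn. Changes of filter and the replicate block could not move it, and keeping outlier-marked spots left it unchanged. The number of probes past the threshold, 1 with all arrays, was 0 with no filter on background, 0 under a fixed slide block, 0 with the shared slide's arrays only and 6 under array weights (4 higher, 2 lower). It lay between 0 and 19 when arrays were left out. The 19 came without wild type 3 (1 higher, 18 lower), and there were 0 without wild type 1, wild type 2, knockout 1 or knockout 3. At an unadjusted p under 0.05 there were 1805, 2389 and 1604 probes with no filter, with the slide block and on the shared slide. Same-numbered samples did not deviate together, with correlations of -0.33, 0.30 and -0.027, so their numbers are not taken as a pairing. With the replicate block 0 probes passed (limma, 1023 at an unadjusted p under 0.05). The Nnt difference stayed at 1.32 by construction, since each block holds an array of each genotype. Of 198 recomputations for the other 11 member probes, the sign changed in 28. The 198 include filter changes and the replicate block, which could not move the probes, and the keeping of outlier-marked spots, which moved Prdx3 alone. In 179, these included, the probes moved by no more than the spread between replicates. The medians of the 6 related lists did so in 100 of 108, with 3 changes of sign. The larger moves came with the slide block and the shared slide, which give the same differences by construction (knockouts against wild type 3), with array weights and, for 1 Glud1 probe, with normexp. Dim probes (the second and described Nnt probes, the last Me3 probe and the dimmer Glrx2 probe) limit what can be said of isoforms, and 3 arrays per genotype limit precision.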
